A study of Mus musculus with 8 samples.

Results

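The type II hair shaft keratins are the basic keratins of the hair fibre, encoded in the mouse by Krt81, Krt82, Krt83, Krt84, Krt85, Krt86 and Krt87. They were followed in whisker follicles, by matching the RefSeq accession of each array probe to a gene symbol and keeping the brightest probe of each gene. Of the 7 genes, 5 were found in this way, each through 1 probe: Krt81, Krt82, Krt84, Krt86 and Krt87. No probe was matched to Krt83 or Krt85, which are not analysed here. The 5 genes are among 25353 genes that were measured and tested on the arrays.

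Whisker follicles came from female ApcMin/+ mice, which carry 1 mutant copy of Apc, a negative regulator of the Wnt and beta-catenin pathway. In the treated group, 4 samples came from animals given E7386, an inhibitor of the interaction of beta-catenin with its coactivator CBP, by mouth at 30 mg/kg and 2 doses per day. Dosing began at 8 weeks of age and ran over 4 cycles, each with 5 dosing days and then 2 days of rest, and follicles were taken 6 h after the last dose. In the control group, 4 samples came from ApcMin/+ females given vehicle. All 8 samples therefore carry the Apc mutation, and no wild-type follicle is part of the comparison. The labels do not say whether each sample is a separate animal or a pool, so the p-values measure the spread between these samples, which may be technical in part.

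A hair keratin filament is built from pairs of 1 type I (acidic) and 1 type II (basic) keratin, and the filaments are embedded in a matrix of cysteine-rich keratin-associated proteins. Precursor cells of the follicle bulb switch on the hair keratins in sequence as they move upwards. KRT35 and KRT85 appear first, in the upper matrix and the lower cortex, and KRT31, KRT33, KRT34, KRT81, KRT83 and KRT86 follow in the middle and upper cortex. The cuticle, the layer of flat cells around the cortex, has keratins of its own, among them KRT32, KRT39, KRT40 and the type II member KRT82. KRT84 is best known from the filiform papillae of the tongue and from the nail. HOXC13, FOXN1, LEF1 and MSX2 are transcription factors of the hair-forming cells, and HOXC13 is known to bind hair keratin promoters directly.

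Levels are given as log2 of the scanner's background-corrected signal minus the 75th percentile of that signal on the same array, so that a difference of 1.0 is a 2.0-fold difference in signal. A change is the mean of the 4 E7386 arrays minus the mean of the 4 vehicle arrays on that log2 scale. Changes were tested with limma, and adjusted p is the Benjamini-Hochberg value over all 25353 genes, called at 0.05. Between 61.5% and 64.7% of the mouse spots on an array were well above background. The vehicle arrays fill row 1 of the slide and the E7386 arrays row 2, so row and treatment cannot be told apart. The tissue label was borne out by bright keratins of the shaft and of the inner root sheath on every array. Skeletal muscle transcripts were also present on every array, and the mean level of 12 muscle genes varied from 1.42 to 4.49 over the vehicle arrays and from 1.68 to 4.58 over the E7386 arrays.

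The members lie in one cluster of keratin genes on mouse chromosome 15. In the order of the RefSeq table (GRCm38.p6), Krt87, Krt88, Krt81, Krt86, Krt83, Krt84 and Krt82 follow each other among the protein-coding genes, with Krt7 before them and Krt90 and Krt75 after them. Krt84 and Krt82 are thus direct neighbours, on the same strand. They are also the 2 members whose profiles over the arrays stood apart from the other 3, and the only members with an entry in the RefSeq promoter table, so the 120 bases before each transcript start are shown. The capitals mark a stretch of 14 bases that both promoters hold, and the A/T-rich box ATAAAAG near the start.
Krt82 (chr15:101550660-101550779, minus strand): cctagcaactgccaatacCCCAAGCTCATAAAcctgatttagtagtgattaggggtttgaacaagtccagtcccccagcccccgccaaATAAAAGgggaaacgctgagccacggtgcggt
Krt84 (chr15:101532821-101532940, minus strand): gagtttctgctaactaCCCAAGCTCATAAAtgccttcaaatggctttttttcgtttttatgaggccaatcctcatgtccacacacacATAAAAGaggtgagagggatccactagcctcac

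The shared stretch CCCAAGCTCATAAA spans bases -102 to -89 before the Krt82 start and bases -104 to -91 before the Krt84 start. It was picked as the longest run of bases common to these 2 promoters, so its presence in both was fixed by the choice. Searched on both strands of the 250 bases before each start, it was found in 2 of 32851 promoters (0.00609%), those of Krt82 and Krt84 alone. Because of that choice, the count does not measure how specific the stretch is to them. Its right end overlaps a match to the HOXC13 element, TTTATGAG on the other strand. The HOXC13 element was searched as TTAATNAA, TTAATNAG, TTAATNGA, TTAATNGG, TTTATNAA, TTTATNAG, TTTATNGA and TTTATNGG. The Krt82 promoter and the Krt84 promoter held 3 matches each. At least 1 match was present in 6 of the 7 type I hair keratins in the table and in 17.2% of all promoters. The LEF1 element, searched as CTTTGAA, or with the ending changed as CTTTGAT, or likewise as CTTTGTA, or as the fourth form CTTTGTT, had no match in either promoter, was present in 5 of the 7 type I hair keratins, and occurs in 14.8% of promoters. The box ATAAAAG occurs in 4.83% of promoters, and Krt82 holds a further match to it on the other strand, farther upstream, that overlaps a HOXC13 match. These matches are letters only, and no binding was measured.

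All 5 probes were well above background on 8 of 8 arrays, and none was saturated. Krt86, a keratin of the cortex, had the 4th brightest signal of the 25353 genes, and its highest raw signal reached 52.6% of the value at which the scanner saturates. Krt81, also of the cortex, stood at place 207 in brightness and Krt87 at place 507. The cuticle keratin Krt82 stood at place 2275 and Krt84 at place 4013. The signals of Krt86, Krt81 and Krt87 kept that order on all 8 arrays. Krt84 was dimmer than Krt82 on all 4 vehicle arrays and on E7386 array 1, and brighter on the other 3 E7386 arrays. Brightness depends on the probe as well as on the RNA, so this order of signals is not an order of transcript abundance. Krt81, Krt83, Krt86 and Krt87 are close paralogs, and the RefSeq table gives Krt83 as an older symbol of Krt87. The probe sequences are not in the files used here, so how far each probe also takes up RNA of its paralogs was not tested.

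None of the 5 type II hair keratins passed the test between E7386 and vehicle (0 of 5 at an adjusted p of 0.05, limma), whereas 284 of all 25353 genes did (1.12%). At an unadjusted p under 0.05 there was 1 of 5, Krt84, against 15.2% of all genes. Of all genes, 0.753% were called higher and 0.367% lower. The mean was higher with E7386 for 4 of 5 members, against 52.0% of all genes, and the members' median change was 0.48 against 0.0088 over all genes. The members share the same RNA samples, so their directions are not independent results. In none of the 5 did the groups of arrays separate without overlap, as they did for 10.5% of all genes. Krt84 had by far the largest difference of the 5, and Krt82 was the 1 member with a lower mean.

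**Figure D1:**
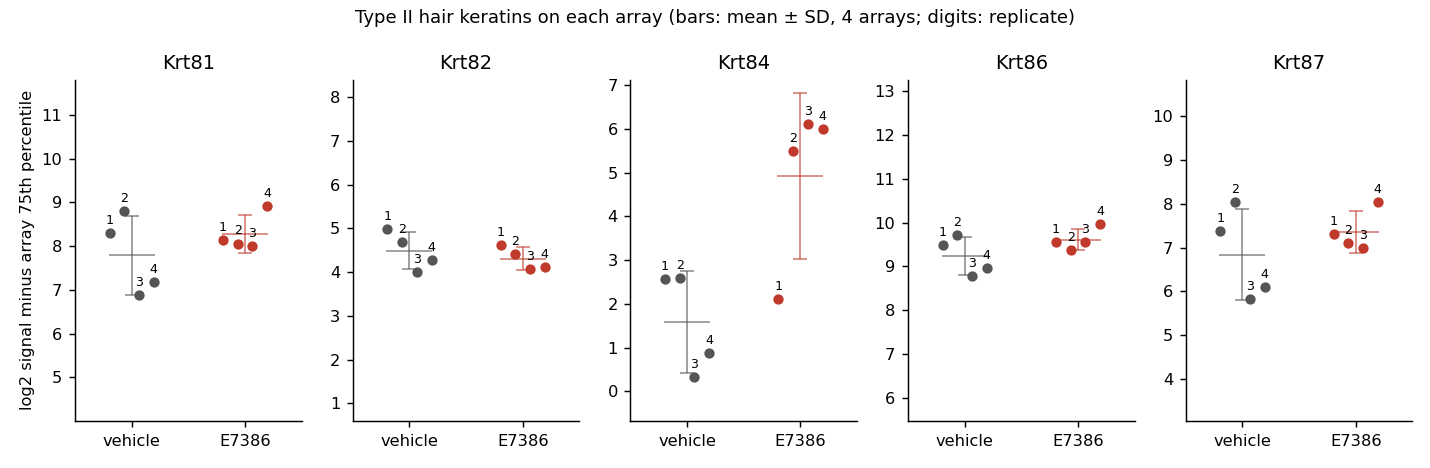
Level of each type II hair keratin on each array, as log2 signal minus the array's 75th percentile, with vehicle in grey and E7386 in red, a digit for the replicate and bars for the mean ± SD of 4 arrays. Each panel spans the same number of log2 units; Krt84 is at 5.49 to 6.12 on 3 E7386 arrays and at 2.10 on E7386 array 1, within the vehicle range of 0.33 to 2.59.

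Krt84 was the member with the largest spread. Its level was 2.57, 2.59, 0.33 and 0.87 on vehicle arrays 1 to 4, and 2.10, 5.49, 6.12 and 5.99 on E7386 arrays 1 to 4. E7386 arrays 2, 3 and 4 stood above every vehicle array, and E7386 array 1 lay inside the vehicle range. In raw signal, the 3 high arrays read 24113, 30676 and 25304, and E7386 array 1 read 2249, where the vehicle arrays read from 661.4 to 3380. The mean level was 1.59 ± 1.16 (SD, n = 4) with vehicle and 4.93 ± 1.90 (SD, n = 4) with E7386.

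The Krt84 change was 3.34 (SE 0.96), or 10.1-fold, with a 95% confidence interval from 2.17-fold to 46.9-fold. This was the 5th largest change by size of the 25353 genes, but only place 1304 by p-value, and it did not pass the threshold (unadjusted p = 0.00835, adjusted p = 0.162, limma). Without E7386 array 1 the change was 4.28 and passed (adjusted p = 0.0321). Over the 22 alternative settings the change stayed between 2.92 and 4.79, with adjusted p between 0.0321 and 0.365. Only 0.323% of genes had a larger spread within groups than Krt84.

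The mean level of the 12 muscle genes was 1.68 on E7386 array 1, 1.42 on vehicle array 1 and 2.45 on E7386 array 2. On these arrays Krt84 read 2.10, 2.57 and 5.49. The muscle level was between 3.76 and 4.58 on the other arrays. With the muscle level as a covariate the Krt84 change was 3.39 (adjusted p = 0.133, limma). Without the 3 arrays of low muscle signal (vehicle array 1 and E7386 arrays 1 and 2) it was 4.79 (adjusted p = 0.104, limma). That setting kept only vehicle arrays 2, 3 and 4 and E7386 arrays 3 and 4, and so dropped the E7386 array with low Krt84. Leaving out E7386 array 1 alone gave 4.28. The other cell types give further values beside the Krt84 pattern. The mean level of 8 dermal papilla genes was -0.57 on E7386 array 1, between -1.14 and -0.91 on the 3 arrays with high Krt84, and between -0.54 and -0.40 on the vehicle arrays. Corin, well above background on 1 of 4 E7386 arrays, carries much of that gap. Without Corin the mean of the other 7 genes was -0.14 on E7386 array 1, -0.15, -0.29 and -0.44 on E7386 arrays 2 to 4, and between -0.12 and 0.16 on the vehicle arrays, so that E7386 arrays 1 and 2 then had nearly the same value. Of the 8 genes 0 passed the test (1.12% of all genes did), 2 had an unadjusted p under 0.05 (15.2% of all genes did), and 7 had a lower mean with E7386. The mean level of 8 companion layer and outer root sheath keratins was 6.21 on E7386 array 1, between 6.41 and 6.49 on the other 3, and between 6.12 and 6.44 on the vehicle arrays. Proliferating matrix genes were at 1.14 on E7386 array 1, between 0.47 and 0.74 on the other 3, and between 0.37 and 1.08 with vehicle. Melanocyte genes were at 2.91, between 2.38 and 2.52, and between 2.07 and 3.06. For the fat cell list and the endothelial and blood list, E7386 array 1 lay inside the range of the other 3. The part of these cell types in the Krt84 values was not tested, and in whole follicles fewer cells of a type and less RNA per cell cannot be told apart.

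The cortex keratins differed less. Krt86 had levels of 9.49, 9.71, 8.78 and 8.96 on vehicle arrays 1 to 4 and of 9.57, 9.37, 9.56 and 9.96 on E7386 arrays 1 to 4. Vehicle arrays 3 and 4 were the 2 lowest, and vehicle arrays 1 and 2 lay among the E7386 arrays. The mean was 9.23 ± 0.44 (SD, n = 4) with vehicle and 9.62 ± 0.25 (SD, n = 4) with E7386, a change of 0.38 (SE 0.22, 95% confidence interval -0.13 to 0.90) that did not pass the test (adjusted p = 0.469, limma). Quantile normalization, which gives the brightest probes of all arrays nearly the same values by its construction, brought this change to 0.13.

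Krt81 had levels of 8.31, 8.79, 6.89 and 7.19 on the vehicle arrays and of 8.13, 8.06, 7.99 and 8.92 on the E7386 arrays. The same vehicle arrays 3 and 4 were lowest, E7386 array 4 was highest, and the groups overlapped. The mean was 7.80 ± 0.90 (SD, n = 4) with vehicle and 8.28 ± 0.43 (SD, n = 4) with E7386. The change of 0.48 (SE 0.43, 95% confidence interval -0.52 to 1.48) did not pass the test (adjusted p = 0.656, limma).

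Krt87 had levels of 7.37, 8.04, 5.83 and 6.11 on the vehicle arrays and of 7.32, 7.10, 6.98 and 8.05 on the E7386 arrays. Its order over the 8 arrays was the order of Krt81 throughout (Spearman's rho 1.0). The mean was 6.84 ± 1.05 (SD, n = 4) with vehicle and 7.36 ± 0.48 (SD, n = 4) with E7386. The change of 0.53 (SE 0.50, 95% confidence interval -0.62 to 1.67) did not pass the test (adjusted p = 0.671, limma). Within groups, 3.82% of genes had a larger spread than Krt81 and 2.73% a larger spread than Krt87, whereas 19.4% had a larger spread than Krt86.

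The cuticle keratin Krt82 had levels of 4.98, 4.68, 4.01 and 4.29 on the vehicle arrays and of 4.63, 4.42, 4.06 and 4.12 on the E7386 arrays. Here vehicle array 1 was highest, and vehicle array 3 and E7386 arrays 3 and 4 were lowest, so that the groups overlapped over most of their range. The mean was 4.49 ± 0.43 (SD, n = 4) with vehicle and 4.31 ± 0.26 (SD, n = 4) with E7386. The change of -0.18 (SE 0.22, 95% confidence interval -0.70 to 0.33) did not pass the test (adjusted p = 0.759, limma). The intervals of Krt81, Krt86 and Krt87 run from -0.52 to 1.48, from -0.13 to 0.90 and from -0.62 to 1.67. These 8 arrays thus leave room for a rise or a fall within those limits as well as for no change.

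**Figure D2:**
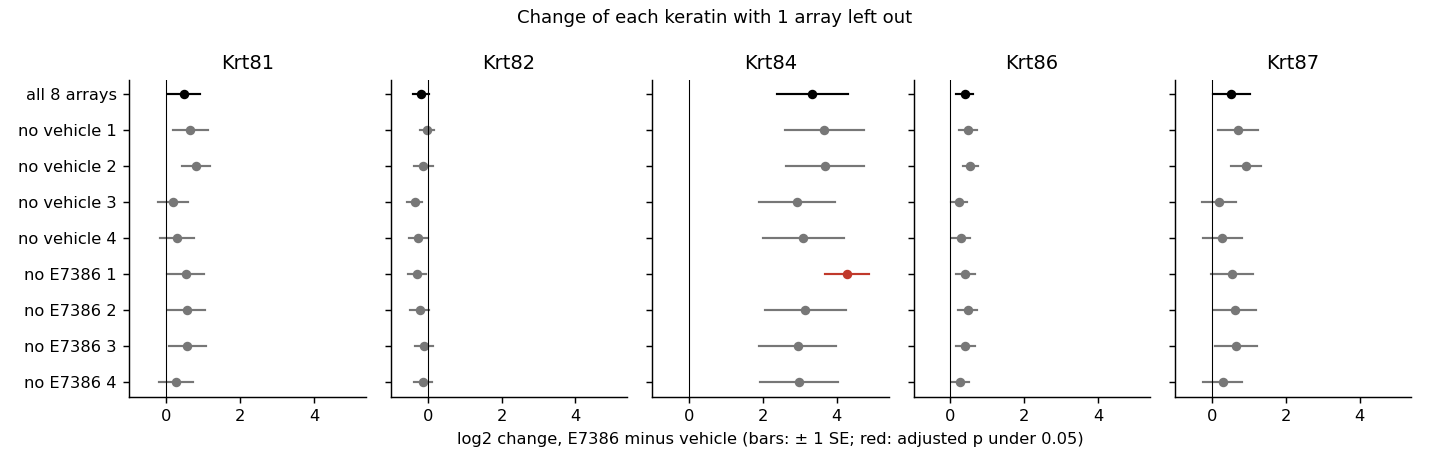
Change of each type II hair keratin (E7386 minus vehicle, log2) with all 8 arrays and with 1 array left out at a time, with bars of 1 SE and red for an adjusted p under 0.05. Krt84 stays between 2.92 and 4.28 and passes the threshold only without E7386 array 1, and the other 4 genes do not pass it with any array left out.

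Leaving out 1 array at a time moved the Krt81 change between 0.18 and 0.81, that of Krt87 between 0.19 and 0.93 and that of Krt86 between 0.23 and 0.54, with the lowest value without vehicle array 3 in each case. The Krt82 change moved between -0.34 and -0.02. None of these passed the threshold, and no member changed sign.

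The type I partners were measured for 9 of 9 genes with changes from -0.18 to 0.72. None passed the test (0 of 9), against 1.12% of all genes. A higher mean with E7386 was found for 8, against 52.0% of all genes, but genes that share the same RNA samples are not independent results. The groups overlapped for all 9, where 10.5% of all genes had no overlap. The median change of the 9 type I keratins was 0.44. Among those of the middle and upper cortex, Krt31 differed by 0.47, Krt33a by 0.37, Krt33b by 0.44 and Krt34 by 0.58. Krt36 differed by 0.72 (SE 0.36, adjusted p = 0.397, limma), the largest of the 9. Among those of the cuticle, Krt39 differed by 0.71, Krt32 by 0.37 and Krt40 by -0.18. Krt35, of the early precursors and the cuticle, differed by 0.12, and its sign turned without vehicle array 3 (-0.043) or without vehicle array 4 (-0.00087).

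**Figure D3:**
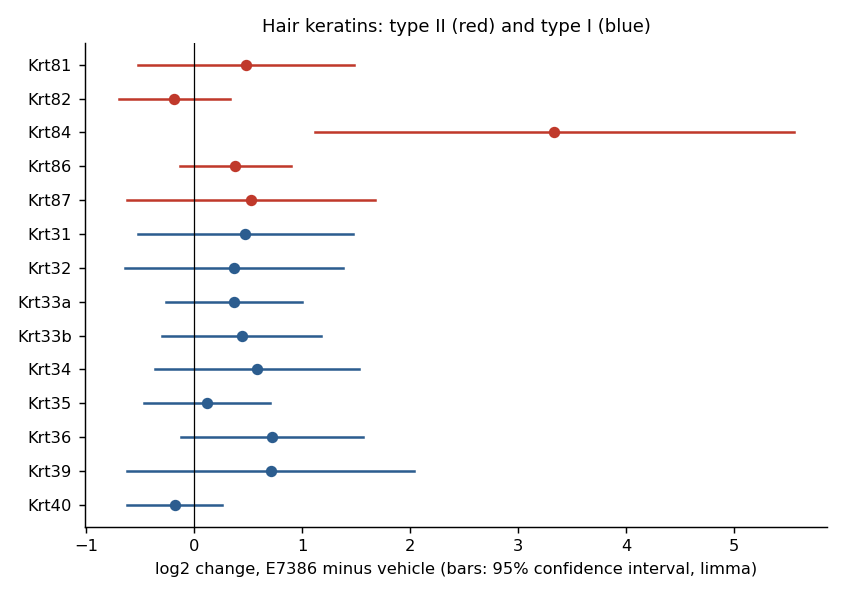
Change of each hair keratin (E7386 minus vehicle, log2) with its 95% confidence interval from limma, type II in red and type I in blue. The intervals of 13 of the 14 genes include 0; that of Krt84 runs from 1.12 to 5.55.

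The arrays differed from each other along the same axis for most hair keratins. Vehicle arrays 3 and 4 were the 2 lowest arrays for 11 of the 12 hair keratins other than Krt82 and Krt84, the exception being Krt40. They were also the 2 lowest for Krt84, at 0.33 and 0.87. For Krt82 the 2 lowest were vehicle array 3 (4.01) and E7386 array 3 (4.06). The SD over the E7386 arrays was smaller than that over the vehicle arrays for 13 of the 14 hair keratins, the exception being Krt84. Over 8 arrays, Krt81 and Krt87 had a Pearson correlation of 0.997, which was 0.986 without vehicle arrays 3 and 4. For Krt81 and Krt86 it was 0.969 (0.855 without those arrays), and for Krt86 and Krt87 0.961 (0.826 without them). Krt81 also followed the type I keratins Krt39 (0.997) and Krt34 (0.993). All these values share the same 8 RNA samples and are given as a description, and the part of the paralogy of Krt81, Krt86 and Krt87 in them was not tested.

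The inner root sheath keratins had their lowest mean levels on vehicle arrays 3 and 4 (4.80 and 4.90) and on E7386 array 3 (4.72), with the other arrays between 4.98 and 5.35. The 50 measured keratin-associated proteins were also lowest on vehicle arrays 3 and 4, at 4.79 and 4.95, and between 6.28 and 7.21 on the other 6. The melanocyte genes were at 2.07 and 2.37 on vehicle arrays 3 and 4 and between 2.38 and 3.06 on the others. The muscle genes were at 4.31 and 4.49 on vehicle arrays 3 and 4, at 4.48 and 4.58 on E7386 arrays 3 and 4, and between 1.42 and 3.76 on the others. Krt81 read 6.89 and 7.19 on vehicle arrays 3 and 4, and 7.99 and 8.92 on E7386 arrays 3 and 4. The part of these tissues in the low hair keratin values of vehicle arrays 3 and 4 was not tested.

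**Figure D4:**
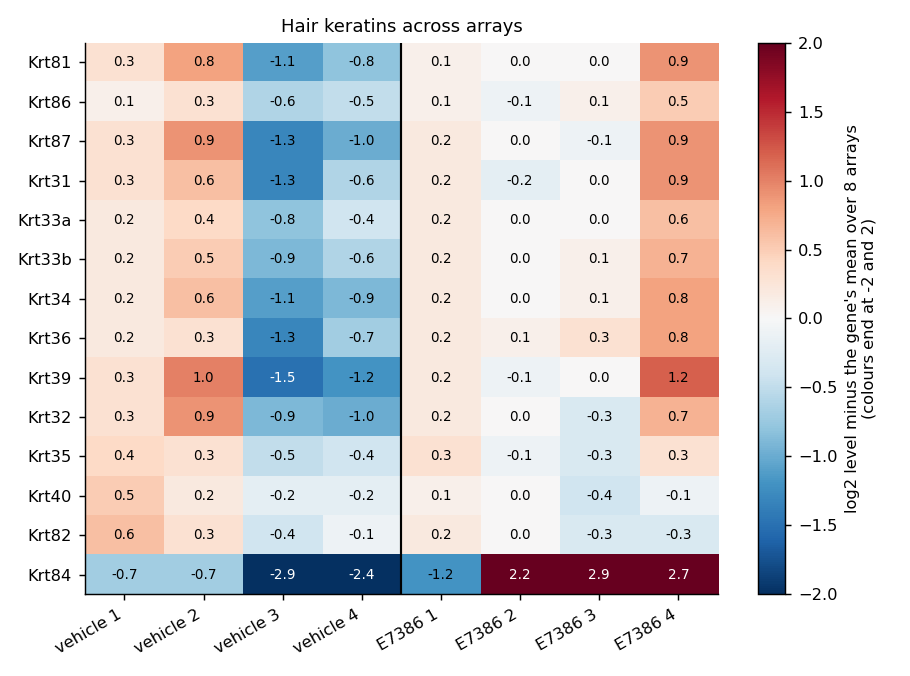
Hair keratin levels on each array as log2 difference from the gene's own mean over 8 arrays, blue for lower and red for higher, with vehicle on the left and E7386 on the right of the line. Most rows are lowest on vehicle arrays 3 and 4; Krt82 and Krt40 are highest on vehicle array 1, and Krt84 is high on E7386 arrays 2, 3 and 4.

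Krt82 followed other genes than the cortex members did. Its correlation with Krt81 was 0.42 over 8 arrays and 0.0049 without vehicle arrays 3 and 4. With group means removed it was 0.588 with Krt81, 0.528 with Krt86 and 0.609 with Krt87, where Krt81 and Krt86 had 0.981 with each other. Its closest hair keratin was the type I cuticle keratin Krt40 (r = 0.932, Spearman's rho 0.881), with 0.897 left without vehicle arrays 1 and 3. With Krt35 the correlation was 0.723, and 0.540 without vehicle arrays 1 and 3. With the other cuticle keratins it was lower, 0.491 for Krt32 and 0.405 for Krt39, both of which followed the cortex members instead (0.972 and 0.997 with Krt81). No correlation is given for Krt84, whose levels of 5.49 to 6.12 on E7386 arrays 2, 3 and 4 lie far above the 0.33 to 2.59 of its other arrays.

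Differences within an array compare single keratins of different stages and layers, each set to its vehicle mean. They take out a shift of the array only where it is of equal size in the genes compared. The SD over the vehicle arrays was 0.90 for Krt81, 0.44 for Krt86 and 0.43 for Krt82. It was 0.49 for Krt35, and 0.87 for both Krt31 and Krt34. How far the differences follow the overall hair keratin level of an array was not tested. Krt82, a single cuticle keratin, minus the mean of Krt81 and Krt86 of the cortex was 0.11, -0.54, 0.20 and 0.23 on the vehicle arrays. On the E7386 arrays it was -0.20, -0.28, -0.69 and -1.29. All 4 E7386 arrays were below 0, and vehicle array 2 lay among them, so the groups overlapped. The mean difference was -0.61. Of the other cuticle keratins, Krt32 changed by 0.37, Krt39 by 0.71, Krt35 by 0.12 and Krt40 by -0.18. The difference therefore describes Krt82 and not the cuticle keratins as a set. With Krt85 not analysed here, the early stage is represented by the type I keratin Krt35 alone. Krt35 minus the mean of Krt31, Krt33a, Krt33b and Krt34 was -0.01, -0.36, 0.33 and 0.05 on the vehicle arrays and -0.08, -0.19, -0.49 and -0.63 on the E7386 arrays, again with vehicle array 2 among the E7386 values and a mean difference of -0.35. Krt84 minus the mean of Krt81 and Krt86 was 0.60, 0.26, -0.58 and -0.28 on the vehicle arrays and 0.18, 3.70, 4.27 and 3.48 on the E7386 arrays. E7386 array 1 again lay within the vehicle range. No test was run on these differences, since the genes were grouped with results of these data known.

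**Figure D5:**
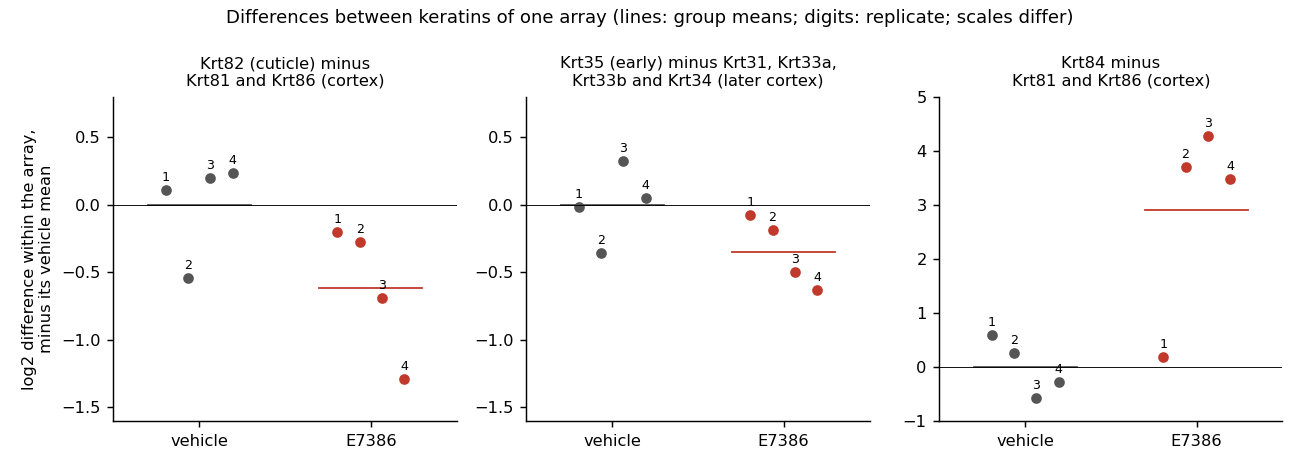
Difference between keratins of the same array (log2), minus its mean over the vehicle arrays, with a digit for the replicate and a line for the group mean. Vehicle array 2 lies within the E7386 range in the first 2 panels, and E7386 array 1 lies within the vehicle range in the panel of Krt84, whose scale is wider.

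The genes most like the members' mean profile over 8 arrays were Adgra3 (r = 0.981), Ak7 (0.980), Krtap1-5 (0.975), Rp9 (0.974), Olfr685 (0.972), Pramel20 (0.971), Rrnad1 (0.971), Tex264 (0.968), Krtap19-9b (0.967) and Krtap16-3 (0.964), out of 16113 named genes. With covariances counted, Krt84 accounts for 53.9% of the variance of that mean profile, Krt87 for 18.5%, Krt81 for 16.7%, Krt86 for 9.47% and Krt82 for 1.53%. Of these 10 genes, Krtap19-9b had a change of 2.20, Krtap16-3 of 1.47 and Krtap1-5 of 1.28, and none of the 10 passed the test. The 10 were picked for likeness to a profile that holds the group difference, so the direction of their changes follows in part from the choice. With group means removed, their r ranged from 0.945 (Tex264) to 0.976 (Adgra3). The nearest genes of single members other than Krt84 were looked up after their values were seen. For Krt81 they were Efhd1 (0.998) and Kcnip1 (0.997), and the 50 nearest held 13 keratin-associated proteins and 5 type I hair keratins. For Krt86 the nearest was Rab15 (0.996) and for Krt82 Rbbp8nl (0.983).

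The keratin-associated proteins, the matrix in which these filaments lie, had a higher mean with E7386 for 46 of the 50 measured (52.0% of all genes did). Of the 50, 0 passed the test (1.12% of all genes did), and their median change was 0.57. The largest differences were those of Krtap19-1 (4.17, SE 1.86), Krtap6-2 (3.29, SE 1.02) and Krtap19-3 (3.06, SE 1.42). Krtap19-1 was well above background on only 2 of the 4 vehicle arrays and on 4 of 4 E7386 arrays, and was kept through the group where it is high, so its difference rests in part on signals near background. Krtap6-2 read 3.10, 6.24, 0.72 and 2.80 on the vehicle arrays and 5.74, 6.78, 6.33 and 7.15 on the E7386 arrays, so that vehicle array 2 lay among the E7386 arrays. Unlike Krt84, it was high on E7386 array 1. It passed the threshold only without vehicle array 2, at a change of 4.29 (adjusted p = 0.0477, limma).

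Other keratins and proteins of the follicle had median changes near 0. The 17 measured type II keratins outside the hair shaft had a median change of -0.011, and 0 passed the test. Of these, Krt75, of the companion layer, differed by 0.58 (SE 0.23, adjusted p = 0.298, limma), Krt76 by -1.17 (well above background on 3 vehicle arrays and 0 E7386 arrays) and Krt77 by -1.09. The 8 keratins of the inner root sheath had a median of -0.039, the 8 of the companion layer and outer root sheath -0.0088, and 12 other shaft proteins 0.021. Each of these lists had 0 past the test, where 1.12% of all genes passed. Among the other shaft proteins, Selenbp1 differed by 0.54, Gprc5d by 0.45 and Dsc2 by 0.29.

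Of 12 transcription factors of hair-forming cells, 0 passed the test (1.12% of all genes did) and the median change was 0.0088. Foxn1 differed by 0.19, Msx2 by 0.093, Hoxc13 by 0.01 (SE 0.17) and Lef1 by 0.0076 (SE 0.22), and scaling to the array median turned the sign of Hoxc13 to -0.067 and of Lef1 to -0.069. Foxq1 differed by 0.39 (SE 0.16, adjusted p = 0.295, limma) and Prdm1 by 0.16. Lists of melanocyte (5 genes), fat cell (8), endothelial and blood (6) and proliferating matrix (6) genes had medians of -0.092, 0.33, -0.0098 and -0.098, also with 0 past the test, beside 0 of 12 muscle genes with a median of -0.17.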

How the data were processed

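RNA of 8 whisker follicle samples (50 ng each, Cy3) was hybridised to 1-colour Agilent arrays on 1 slide. Per the file headers, the authors' scanner files hold a background-corrected intensity per spot (Feature Extraction 11.5.1.1; version 11 per the submitters' processing notes). Their deposited value table, on a log2 scale with one distribution shared by all arrays, served as an alternative. Array designs name mm9; symbols came from a RefSeq table of GRCm38.p6, which named 27509 of 29150 probes with a RefSeq accession.

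Spots of a probe were averaged, log2 intensity was reduced by each array's 75th percentile, and the brightest probe per gene was kept where at least 3 of the 4 arrays of either group had it well above background. All 25353 genes were fitted with limma 3.58.1 in R 4.3.3, and tested on simulated data first. Array number limits the precision. Correlations between arrays of a group were 0.985 to 0.994. Members and lists were chosen with earlier results of these data known. Named genes are every member, every type I hair keratin, the 3 largest changes of each other list of shaft and follicle genes, 4 transcription factors and the 10 genes most like the mean profile; the nearest genes of single members, and the dermal papilla mean without Corin, were added later. Genes of the marker lists of other cell types are given by list, and some results are not reported here. Alternatives covered scaling, background correction, filters, probe choice, variance model, array weights, the replicate block and single arrays left out. The planned correction on mean signals was replaced by one on median signals with offset 50, since the files hold no mean signal.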

Additional observations from a re-analysis of the deposited data

Results flagged for a closer look

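In 3 of 88 groups of 4 arrays tested, 1 array lay far from the other 3, where chance alone marks about 5% of groups. Krt84 read 2.10 on E7386 array 1 and 5.49 to 6.12 on the other E7386 arrays, and the gap was 0.844 of the whole range. Krt81 read 8.92 on E7386 array 4 and 7.99 to 8.13 on the other E7386 arrays, a gap of 0.851 of the range. Tex264, one of the genes most like the members' mean profile, read 4.34 on E7386 array 4 and 4.22 to 4.23 on the others, a gap of 0.872 of a narrow range.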

How the results depend on the processing

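Each of Krt81, Krt82, Krt86 and Krt87 kept its direction and stayed short of the threshold in 22 of 22 alternatives, and Krt84 in 21 of 22. Without E7386 array 1, Krt84 changed by 4.28 and passed, so that the count of type II hair keratins past the threshold ranged from 0 to 1 and that of all genes from 88 to 240 with 1 array left out. Krt84 ranged from 2.92 to 4.28 there. The count of all genes was 153 with no detection filter, 689 at an adjusted p under 0.10, 101 with a change of at least 2-fold, 617 with muscle as a covariate and 48 when the 3 low-muscle arrays were left out; the last 2, and the normexp correction on median signals, were chosen after seeing the data. Scaling to the array median called 137 genes higher and 126 lower, against 191 and 93 in the main setting.

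The labels do not say what the replicate numbers stand for. With group means removed, same-numbered vehicle and E7386 arrays had correlations of 0.486, -0.165, 0.287 and 0.180. Those of differently numbered arrays ran from -0.486 to 0.383. These values cannot decide whether the numbers mark pairs. The replicate block gave 59 calls (50 higher, 9 lower), 0 of them type II hair keratins, and the Krt84 change stayed at 3.34.

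In each of 3 lists that otherwise had 0, a gene of that list passed in some settings. These were keratin-associated proteins (0 to 1 with 1 array left out), dermal papilla (0 to 1, likewise) and fat cells (1 with muscle as a covariate, 1 without the 3 low-muscle arrays). Small changes turned sign. With 1 array left out, Krt35 ranged from -0.043 to 0.26, Hoxc13 from -0.12 to 0.13, Foxn1 from -0.011 to 0.34, Lef1 from -0.12 to 0.16, Msx2 from -0.054 to 0.25, Krt74 from -0.23 to 0.054 and Krt26 from -0.090 to 0.33. Array median scaling gave Hoxc13 -0.067, Lef1 -0.069 and Rp9 -0.024. Muscle as a covariate gave Hoxc13 -0.016 and Lef1 -0.032. Lef1 was -0.038 with array weights and -0.015 with normexp. Without the 3 low-muscle arrays, Lef1 was -0.015 and Krt26 -0.017. The mean of probes gave Krt6b 0.010. The cause of these changes was not tested. Signal over background did not limit the members.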
